A study of Rattus norvegicus with 4 samples.

Results

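Monocytes are white blood cells that leave the bone marrow, circulate in the blood and patrol or cross the vessel wall. In single-cell data from a dissociated hippocampus they stand for blood-borne myeloid cells beside microglia, the resident macrophages of brain tissue. Here they were taken by a rule on transcript counts in single cells. A cell had at least 1 UMI (unique molecular identifier, 1 captured transcript) of Napsa, an aspartic protease, and at least 3 UMIs of Lyz2, lysozyme. It had at most 5 UMIs over the complement genes C1qa, C1qb and C1qc and few or none of the markers of T cells, B cells, neutrophils, oligodendrocytes and endothelial cells. The rule found 118 monocytes among 28879 cells kept, or 0.409% of them (95% Clopper-Pearson interval 0.338 to 0.489%).

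The study profiled hippocampus of wild type male Sprague Dawley rats aged 10 to 12 months on the 10x Genomics platform, with 4 titled samples of 1 library each. The titles are MD, described as chronic stress, DEPR, described in the same way, MCAO, occlusion of the middle cerebral artery on one side, and NC, a negative control. The design text speaks instead of 2 groups of 10 rats, all given the occlusion and 1 of them stressed afterwards, with 5 hippocampi per group used for sequencing. How many rats went into a library was not stated, and red cells had been lysed during preparation. The matrix pools all cells under barcode suffixes 1 to 4, and no label ties a suffix to a title. The suffixes are called barcode sets here, they are not compared as conditions, and no p-value is given.

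Classical monocytes carry adhesion and inflammatory transcripts and are recruited into injured tissue, where they can become macrophages. Non-classical monocytes crawl along vessel walls, depend in mice on the nuclear receptor Nr4a1 and are marked in rats by high surface CD43, the product of Spn. Microglia arise from a separate embryonic lineage and renew within the brain.

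The monocytes numbered 14 in barcode set 1, 19 in set 2, 23 in set 3 and 62 in set 4. Their shares of kept cells were 0.214% (0.117 to 0.358%), 0.23% (0.139 to 0.359%), 0.433% (0.275 to 0.649%) and 0.708% (0.543 to 0.906%), so the interval of set 4 lay above those of sets 1 and 2 and overlapped that of set 3. With each set a single library, these intervals cover counting error only, and a share in the tissue and a share in the cell suspension cannot be told apart. Border macrophages, the macrophages of meninges and perivascular spaces, made up 0.442%, 0.121%, 0.32% and 1.03% of the 4 sets, and neutrophils 0.351%, 0.618%, 0.151% and 0.297%. Set 4 was highest for monocytes and border macrophages, and set 2 for neutrophils.

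**Figure D1:**
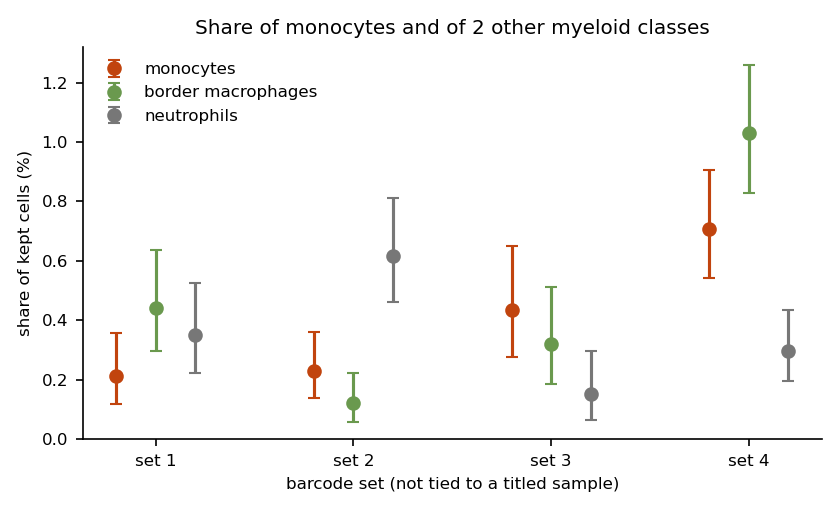
Share of kept cells (%) in each barcode set for monocytes, border macrophages and neutrophils. Points are shares and bars 95% Clopper-Pearson intervals for counting error; monocytes go from 0.214% in set 1 to 0.708% in set 4.

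The kept cells held 6554, 8250, 5315 and 8760 barcodes in the 4 sets. Monocytes had a median of 4225 UMIs (621 to 34428) and 1473.5 genes per cell, with 5.7% of UMIs from mitochondrial genes, against 5461 UMIs, 1528 genes and 4.8% in 10939 microglia. Their summed depth was 72711, 173330, 137440 and 356455 UMIs in sets 1 to 4. Among kept cells, 87 barcodes occurred in more than 1 set, and 1 of them was a monocyte. The doublet caller Scrublet marked 2 of the 118 monocytes and 942 of all kept cells, and 1 monocyte also met the microglia rule.

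Membership turned on few UMIs in some cells. Of the members, 10 had exactly 1 Napsa UMI, while 23 cells failed the rule only by having none. For Lyz2, 3 members had exactly 3 UMIs, and 2 of the 65 cells that failed only this limit had 2. The C1q limit alone kept out 94 cells and the S100a9 limit alone 73. Members had a median of 6 Napsa and 22 Lyz2 UMIs.

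The label was checked against 5 markers, of which Napsa and Lyz2 belong to the rule and so describe the choice. The others were Cybb, the catalytic subunit of the phagocyte NADPH oxidase, Lst1, a small leukocyte membrane protein, and G0s2, an inhibitor of triglyceride breakdown. Together the 5 summed to 26420, 7743, 20154 and 14613 transcripts scaled to a fixed total of 1000000 (CPM) in monocytes of sets 1 to 4, against 442, 402, 861 and 801.0 CPM in microglia. Border macrophages had 1736, 842, 4316 and 4627 CPM. These sums hold the 2 rule genes, so they partly describe the choice. The 3 markers outside the rule were all called higher than in microglia, by the call defined below. Against border macrophages 2 of the 3 were called higher, and Cybb was not called. Neutrophils had 30525, 21206, 8903 and 22451 CPM, so the sum does not separate monocytes from neutrophils. Cybb alone had 935, 404, 909 and 917 CPM in monocytes, against 415, 225, 0 and 234 CPM in neutrophils.

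Spn was the clearer separation. It had 261, 121, 575 and 424 CPM in monocytes of sets 1 to 4, against 10.1, 0, 0 and 14.6 CPM in neutrophils. The 15 neutrophil genes listed summed to 1499, 265, 473 and 623 CPM in monocytes, against 110638, 120438, 65957 and 99646 CPM in neutrophils, and 6 of them, Mmp8, Mmp9, Ngp, Retnlg, Ltf and Padi4, had no UMI in any monocyte. The rule limits S100a9, which is 1 of the 15, so this sum partly describes the choice. The 12 border macrophage genes found summed to 13.8, 144, 58.2 and 499 CPM in monocytes, against 3547 to 7699 CPM in border macrophages, with Cd163, Ms4a7, Stab1, Cd209a and Siglec1 at 0. P2ry12, the ADP receptor of resting microglia, had a UMI in 0 of 118 monocytes, where a limit of 3 counts allows a share of cells with a UMI of up to 2.54%, and in 4286 of 10939 microglia (39.2%). Endothelial cells, which should lack it, had it in 19 of 3275 (0.58%).

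Some members also carried transcripts of other cells. With limits chosen after seeing the data, 4 monocytes held at least 10 UMIs of astrocyte genes, 3 at least 10 UMIs of mural genes and 12 at least 4 UMIs of dendritic cell genes, 18 cells in all, called carriers below. The 4 astrocyte carriers were all in set 2 and supplied 62.5% of its monocyte UMIs. Of the dendritic carriers, 2 were in set 3 (18.8% of its UMIs) and 10 in set 4 (40.5%). Carriers held between 7321 and 34428 UMIs each, and without them 14, 14, 21 and 51 monocytes were left. The counts of called genes below are given with and without them. Levels without carriers are given for some genes only. Other levels are over all members, in which carriers held 41.1% of the UMIs. Whether a carrier is 1 cell or several was not tested.

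The promoters of 5 genes named in the results are shown because each holds a match to a myeloid motif, so they were chosen after the search. They are the 250 bases before the start site, read 5′ to 3′ on the gene's strand from RefSeq on the GRCr8 build, whereas the counts were made on Rnor_6.0. Capitals mark the first match to GAGGAAG, a core of the binding motif of PU.1, or to TTGCNNAA, the half-sites of C/EBP factors, searched on both strands. PU.1 and C/EBP factors are transcription factors of the myeloid lineage. Lyz2 belongs to the rule, G0s2, Fcnb and Fpr2 were higher in monocytes, and Trem2 was lower in monocytes.
Lyz2, chr7:54798012-54798261, minus strand: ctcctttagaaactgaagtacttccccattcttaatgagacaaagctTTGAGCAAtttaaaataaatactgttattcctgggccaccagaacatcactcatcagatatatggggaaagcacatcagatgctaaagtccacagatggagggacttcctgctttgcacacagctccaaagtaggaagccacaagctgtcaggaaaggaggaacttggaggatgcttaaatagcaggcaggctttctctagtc
G0s2, chr13:107335949-107336198, minus strand: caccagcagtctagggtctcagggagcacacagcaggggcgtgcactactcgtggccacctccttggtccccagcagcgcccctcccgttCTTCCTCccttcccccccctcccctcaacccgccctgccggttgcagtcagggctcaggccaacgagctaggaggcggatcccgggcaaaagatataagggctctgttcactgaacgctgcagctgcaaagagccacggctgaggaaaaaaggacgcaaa
Fcnb, chr3:31800189-31800438, minus strand: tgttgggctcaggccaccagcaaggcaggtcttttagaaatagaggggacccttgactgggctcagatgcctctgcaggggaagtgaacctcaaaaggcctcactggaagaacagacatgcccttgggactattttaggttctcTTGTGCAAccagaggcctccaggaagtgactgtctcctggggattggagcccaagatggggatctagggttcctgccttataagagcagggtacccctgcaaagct
Fpr2, chr1:67449387-67449636, plus strand: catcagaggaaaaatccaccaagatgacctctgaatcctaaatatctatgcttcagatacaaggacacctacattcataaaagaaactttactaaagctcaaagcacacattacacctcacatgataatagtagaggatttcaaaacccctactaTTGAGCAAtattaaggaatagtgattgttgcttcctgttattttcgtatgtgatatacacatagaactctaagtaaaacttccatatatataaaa
Trem2, chr9:20151780-20152029, minus strand: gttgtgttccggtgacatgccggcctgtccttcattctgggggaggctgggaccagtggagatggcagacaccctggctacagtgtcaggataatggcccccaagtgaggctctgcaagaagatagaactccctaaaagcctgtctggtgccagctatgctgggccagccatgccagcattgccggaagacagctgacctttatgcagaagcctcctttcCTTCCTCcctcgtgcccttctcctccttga

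The Lyz2, Fcnb and Fpr2 windows held the C/EBP letters at bases -203 to -196, -106 to -99 and -95 to -88 from the start site. The G0s2 and Trem2 windows held the PU.1 letters at -160 to -154 and -30 to -24. Over all 33469 upstream windows, 10.2% held GAGGAAG and 9.22% held TTGCNNAA. Among the 200 windows of genes called higher in monocytes, as defined in the next paragraph, the shares were 11% and 14.5%, and among the 118 windows of genes called lower 12.7% and 7.63%. The windows of all genes measured in that comparison held them in 11.3% and 7.64%. A match describes letters and not a bound site. Of 20 leading genes looked up, 14 were found in the promoter table and 5 of these held a match in a window, Lyz2, G0s2, Fcnb, Fpr2 and Ly49si1. Trem2 was not among the 20.

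For the comparison with microglia, UMIs were summed per barcode set and class, and the ratio of CPM was taken within each set. A gene was measured when its CPM averaged at least 50 over the sets and both classes, and called when it differed at least 2-fold in the same direction in all 4 sets, with 3 counts put in place of any smaller count. Of 2409 measured genes, 258 were called higher (10.7%) and 139 lower (5.77%) in monocytes. With the floor of 3 counts used only where it works against a call, a rule added after seeing the data, 231 were higher (9.59%) and 139 lower. Counts of list members below use this second rule. Since the cells were chosen by their transcripts, all these values describe the class and test nothing.

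The median measured gene lay 0.32 above 0 on the log2 scale under CPM and 0.23 below it (-0.23) under TMM scaling, which assumes that most genes do not differ. This was a shift past 0.1, so log2 ratios are given relative to the median gene. The split of calls moved with the scaling: 65% of calls were higher under CPM, and 30.6% under TMM, with 121 genes higher (5.14%) and 274 lower (11.6%). Without the carriers 336 genes were higher (14.6%) and 136 lower (5.91%), and 211 and 105 of the original calls remained. Under the second rule 109 genes were higher with TMM (4.63%) and 325 without carriers (14.1%), with the counts of lower genes as before. Genes named as higher or lower than in microglia kept their call under TMM and without carriers unless stated.

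The monocyte transcripts furthest above microglia included those of several secreted and surface proteins. Slpi, a secreted inhibitor of neutrophil elastase, had 1210, 871, 1644 and 2699 CPM in monocytes of sets 1 to 4, against 0.161, 3.97, 0.079 and 1.92 CPM in microglia, a log2 ratio of 11.05. The groups did not overlap, yet the spread among monocytes was wide: without carriers Slpi had 1210, 2812, 179 and 616 CPM. Slpi was also high in neutrophils, at a median of 3117 CPM.

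G0s2 had 5350, 3906, 3427 and 3605 CPM in monocytes, against 6.92, 12.7, 1.43 and 19.7 CPM in microglia (log2 ratio 8.61). These levels were similar between sets over all members, but the carriers weigh on them. G0s2 had 5940 CPM in the 100 monocytes without carriers, against 2113 CPM in the astrocyte carriers of set 2 and 5.88 CPM in the dendritic carriers. It was shared with neutrophils, where the median was 8850.0 CPM. After thinning each cell to 1000 UMIs, it had a UMI in 76 of 115 monocytes (66.1%, 56.7 to 74.7%), 28 of 10735 microglia (0.261%) and 29 of 3070 endothelial cells (0.945%). Unthinned, the shares were 75.4%, 1.18% and 3.91%, at median depths of 4225, 5461 and 4753 UMIs.

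Receptors formed a second set of high transcripts. Lilrb4, an inhibitory immunoglobulin-like receptor of leukocytes, had 495, 271, 444 and 261 CPM in monocytes, against 0.644, 0.331, 0 and 1.13 CPM in microglia (log2 ratio 9.31). Ly49si1, of the Ly49 family of lectin-like receptors, had 358, 115, 284 and 239 CPM in monocytes, against at most 1.08 CPM in microglia (log2 ratio 9.52). Unlike Lilrb4, at a median of 710.2 CPM in neutrophils, Ly49si1 had a median of 13.6 CPM there. Gjb2, the gap junction protein connexin 26, had 206, 92.3, 211 and 194 CPM in monocytes, against at most 0.798 CPM in microglia (log2 ratio 9.11), and a median of 0 CPM in neutrophils. In at least 1 set microglia had fewer than 3 UMIs of Slpi, Lilrb4, Ly49si1 and Gjb2, so their ratios are lower bounds there.

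Fpr2, a receptor for formyl peptides of bacteria and damaged mitochondria, had 371, 121, 65.5 and 42.1 CPM in monocytes, against at most 0.094 CPM in microglia (log2 ratio at least 8.55). Chi3l1, a secreted chitinase-like lectin, had 385, 271, 335 and 261 CPM in all monocytes, against 0.885, 2.54, 0.713 and 0.985 CPM in microglia (log2 ratio 8.09). It was shared with neutrophils, with a UMI in 79 of 108 of them (73.1%) and in 64 of 118 monocytes (54.2%), unthinned. Fcnb, a ficolin that starts the lectin pathway of complement, had 963, 28.8, 393 and 530 CPM in monocytes, against 2.09, 0.882, 0.713 and 3.85 CPM in microglia (log2 ratio 7.66). It was uneven between sets and found in 25 of the 118 monocytes (21.2%).

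The rest of the 15 highest were Cd55, which blocks complement convertases (log2 ratio 8.12), Trem1, an activating receptor of inflammation (8.01), Mnda, a myeloid nuclear antigen (7.76), the defensin Defb14 (8.38), the signal-regulatory protein Sirpd (8.14), the lectin receptor Clec4d (7.92) and the integrin subunit Itgb7 (7.11). Trem1, Defb14, Sirpd, Clec4d and Itgb7 had no call under TMM, and Itgb7 had none without carriers.

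**Figure D2:**
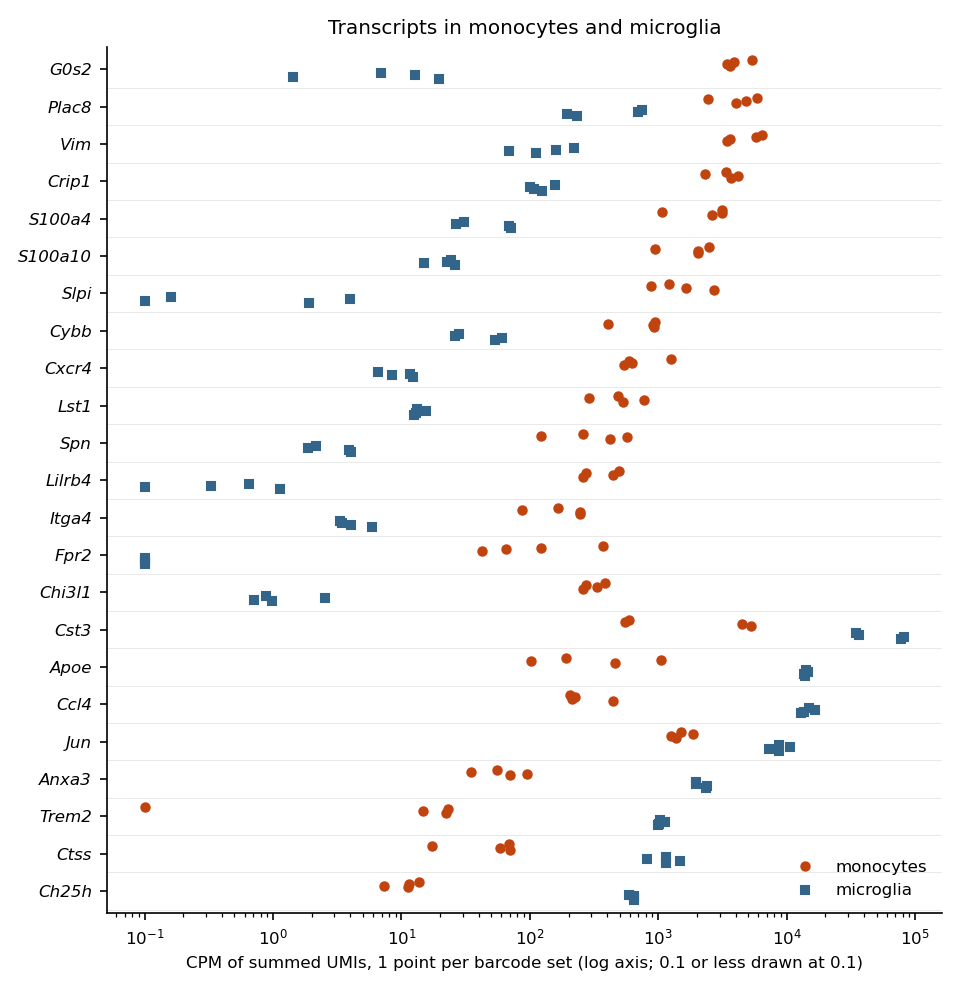
CPM (log axis) of leading genes in monocytes (circles) and microglia (squares), 1 point per barcode set, with values of 0.1 or less drawn at 0.1. The genes drawn were picked from those called in all 4 sets, so their separation follows largely from that choice. For every gene drawn the 4 monocyte points and the 4 microglia points do not overlap. G0s2 in monocytes lies at 3427 to 5350 CPM.

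Calcium-binding S100 proteins, annexins and galectins stood highest by median among the function lists with at least 5 measured genes. Of 11 measured members, 9 were higher and 1 lower, with a median log2 ratio of 5.10 beside 0 for all measured genes by construction. The same 9 to 1 split held under TMM, and 9 of 10 were higher without carriers. S100a4, a regulator of cell motility, had 3108, 1062, 3114 and 2601 CPM in monocytes, against 30.7, 26.7, 68.2 and 71.6 CPM in microglia (log2 ratio 5.10). S100a10, the partner of annexin 2, had 2476, 935, 2023 and 2054 CPM in monocytes, against 24.4, 22.8, 15 and 26.0 CPM in microglia (log2 ratio 6.17). Set 2, where astrocyte carriers weigh most, was lowest for both. Its values without carriers were 2678 CPM for S100a4 and 1397 CPM for S100a10. The 1 lower member was Anxa3, with 55.0, 34.6, 94.6 and 70.1 CPM in monocytes, against 1962, 1965, 2406 and 2358 CPM in microglia (log2 ratio -5.43).

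Of 18 measured genes of the actin skeleton and motility, 9 were higher and none lower. The median log2 ratio was 1.55, 12 of 18 were higher without carriers, and 4 of 18 were higher under TMM. Vim, the intermediate filament vimentin, had 6450, 5746, 3609 and 3420 CPM in monocytes, against 222, 159, 68.7 and 113 CPM in microglia (log2 ratio 4.73). Crip1, a LIM domain protein, had 3383, 2319, 4191 and 3672 CPM in monocytes, against 157, 100.4, 107 and 124 CPM in microglia (log2 ratio 4.39). Emp3 and the scaffold Ahnak were the other members higher under both scalings (log2 ratios 4.76 and 3.51). Actb, cytoplasmic actin, was not called, with 2833, 2025, 3289 and 3252 CPM in monocytes, against 2402, 2558, 2895 and 2830 CPM in microglia.

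Adhesion molecules and chemotactic receptors carry monocytes out of blood. Among integrins, selectins and their partners, 7 of 9 were higher and 1 lower. Under TMM 3 of 7 were higher and 1 lower, and without carriers 6 of 8 and none. Itga4, the α4 chain of the receptor for VCAM-1, had 165, 86.5, 247 and 247 CPM in monocytes, against 3.3, 3.42, 4.04 and 5.87 CPM in microglia (log2 ratio 5.20), and Cd44, the hyaluronan receptor, had a log2 ratio of 4.37. Among chemoattractant receptors, 4 of 6 were higher and 2 lower, but under TMM 2 of 7 were higher and 3 lower. Cxcr4, the receptor for CXCL12, had 1265, 589, 619 and 539 CPM in monocytes, against 6.6, 11.6, 8.47 and 12.3 CPM in microglia (log2 ratio 5.61). Unthinned, Cxcr4 had a UMI in 90 of 118 monocytes (76.3%) and also in 71 of 108 neutrophils (65.7%). Gpr183, a receptor for oxysterols, was lower (-2.73), but at 1000 UMIs per cell its ratio turned to 0.027. Ccr2, the receptor through which classical monocytes leave the marrow, was not analysed here.

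In the NADPH oxidase and lysozyme list, the rule gene Lyz2 aside, 3 of 6 were higher and none lower, 1 and 1 under TMM. Cybb had 935, 404, 909 and 917 CPM in monocytes, against 27.8, 26.1, 61.1 and 53.1 CPM in microglia (log2 ratio 3.71), and was not called against border macrophages. Of complement genes 4 of 8 were higher and 1 lower, and the higher ones under both scalings were Cd55, Cd59, which blocks the membrane attack complex (3.76), and Cfp, properdin (2.54). Interferon response genes were mostly not called: 2 of 12 were higher, Isg15 and Ifit3, and both lost the call under TMM, while Cxcl10 was lower (-2.94).

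Of 25 measured transcription factors, 3 were higher and 6 lower, beside 9.59% higher and 5.77% lower among all measured genes. The higher ones, Cebpb, Cebpd and Bhlhe40, were thus near the share of all genes, and each of the 3 lost its call under TMM. Cebpb, a C/EBP factor needed by non-classical monocytes in mice, had 5996, 3716, 4358 and 4304 CPM in monocytes, against 1402, 1476, 971 and 1127 CPM in microglia (log2 ratio 1.70). Sall1, a factor that holds microglial identity, was lower at 13.8, 17.3, 7.28 and 8.42 CPM in monocytes, against 114, 122, 154 and 173 CPM in microglia (-3.14). Cebpa, Klf6, Mef2c and Jun were also lower. Spi1, which encodes PU.1, was not called, with 330.1, 179, 284 and 345 CPM in monocytes, against 139, 145, 186 and 179 CPM in microglia.

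Transcripts of resident microglia were among those lowest in monocytes. Of 13 measured homeostatic microglia genes, the rule genes aside, 11 were lower and none higher, with a median log2 ratio of -3.14. All 14 measured were lower under TMM and 7 of 13 without carriers. Trem2, a lipid-sensing receptor of microglia, had 0, 23.1, 14.6 and 22.4 CPM in monocytes, against 1037, 1130, 1016 and 995 CPM in microglia (-5.82). Csf1r, the receptor on which microglia depend for survival, differed less (-1.62) and lost its call without carriers.

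Cst3, the protease inhibitor cystatin C, had 591, 554, 4446 and 5313 CPM in monocytes, against 34771, 36450, 81867 and 77940 CPM in microglia (-5.36). The 2 higher monocyte values were those of the sets with dendritic carriers. Without carriers Cst3 had 591, 765, 1040 and 1187 CPM.

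Other transcripts among the 10 lowest were those of Sparc, a matrix-associated glycoprotein (-5.43), Ch25h, which makes 25-hydroxycholesterol (-5.37), Ltc4s, leukotriene C4 synthase (-5.20), and the membrane proteins Tmem176b (-5.19) and Tmem176a (-5.19). Not all of the 10 set monocytes apart from microglia alone. Ch25h, Tmem176b, Tmem176a, Cst3 and Apoe were also called lower than in border macrophages. Ch25h had 13.8, 11.5, 7.28 and 11.2 CPM in monocytes, against 593.5, 643.3, 641.9 and 642.3 CPM in microglia. In some sets monocytes had fewer than 3 UMIs of Ch25h, and of Trem2 and Sall1 above, so their ratios are upper bounds there.

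Apoe, the lipid carrier apolipoprotein E, had 193, 1056, 102 and 460 CPM in monocytes, against 14119, 14513, 13740 and 13797 CPM in microglia (-5.87). Set 2, the set with astrocyte carriers, was highest, and it had 325 CPM without them. Of 18 measured lysosomal genes other than Napsa, 7 were lower and none higher, with 10 lower under TMM and 7 lower and 1 higher of 17 without carriers. Among the lower ones were Ctss (-4.69), Ctsd (-3.47), Ctsl (-3.46), Lgmn (-2.78) and Lamp2 (-2.47), all proteases but Lamp2, a protein of the lysosomal membrane. Clearance receptors were lower in 4 of 6, with the apoptotic cell receptor Mertk at 0, 11.5, 0 and 8.42 CPM in monocytes, against 109, 125, 188 and 202 CPM in microglia.

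Of 15 measured cytokines and chemokines, 5 were lower and 1 higher, beside 5.77% lower and 9.59% higher among all measured genes. Under TMM 7 were lower and 1 higher, and without carriers 4 were lower and 2 higher of 14. Ccl4, an inflammatory chemokine, had 206, 225, 211 and 443 CPM in monocytes, against 14869, 16469, 13536 and 12981 CPM in microglia (-6.41, the lowest among called genes with a symbol and outside the rule). Ccl3 differed less, with 2916, 1523, 2176 and 1911 CPM in monocytes, against 8467, 9542, 8217 and 8120 CPM in microglia (-2.32). Ccl6 was the higher member, with 839, 577, 458 and 508 CPM in monocytes, against 42.6, 52.0, 33.4 and 36.8 CPM in microglia (3.46). Il1b, the cytokine interleukin-1β, was not called, with 5845, 2498, 2219 and 2317 CPM in monocytes, against 2705, 2650, 1733 and 1976 CPM in microglia.

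Members of the heat shock and immediate early lists were also lower. Of 9 heat shock genes 6 were lower, and all 9 under TMM. Hspa1b, an inducible HSP70, had 220.0, 57.7, 713 and 859 CPM in monocytes, against 2842, 3573, 7602 and 8156 CPM in microglia (-3.87). Both classes were lower in sets 1 and 2 than in sets 3 and 4. Of 13 immediate early genes 3 were lower, Jun, Egr1 and Egr2. Jun had 1513, 1858, 1266 and 1380 CPM in monocytes, against 8625, 10685, 7334 and 8661 CPM in microglia (-2.85).

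Genes of antigen presentation were mostly not called. Of 6 measured MHC class II genes, 1 was lower, Ctss, a protease of that pathway. Cd74, the invariant chain, had 1458, 2089, 5188 and 10136 CPM in monocytes, against 6833, 6338, 4797 and 4470 CPM in microglia. The direction thus changed between sets: monocytes were below microglia in sets 1 and 2 and above them in sets 3 and 4. Without carriers Cd74 had 1458, 2889, 3495 and 2650 CPM, below microglia in all 4 sets.

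The remaining lists are read beside the 9.59% of all measured genes that were higher and the 5.77% that were lower, and a share near these is no result about a list. Of these lists, 1 of 8 MHC class I genes was higher, the immunoproteasome subunit Psmb9 (2.11). Pattern recognition genes were higher in 2 of 7, none under TMM and 4 of 8 without carriers. Fc receptors and adaptors were higher in 3 of 14, with 1 higher and 1 lower of 13 under TMM and 7 of 14 higher without carriers. The haem enzyme Blvra was higher (4.90) among 5 iron and haem genes, and the lipid droplet protein Plin2 (2.29) among 11 lipid genes, of which 3 were higher and 3 lower. Under TMM 2 lipid genes were higher and 4 lower of 10. The glucocorticoid response list had 3 higher and 1 lower of 10, the lower one being the kinase Sgk1 (-4.25). Glycolysis and hypoxia genes were higher in 3 of 12 and lower in 1, with 1 and 1 of 11 under TMM. Growth factor and TGF-β signals were higher in 2 and lower in 3 of 10, none and 4 under TMM, and 3 and 1 of 11 without carriers. NF-κB feedback genes were lower in 3 of 9, and disease-associated microglia genes were higher in 1 and lower in 6 of 13.

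**Figure D3:**
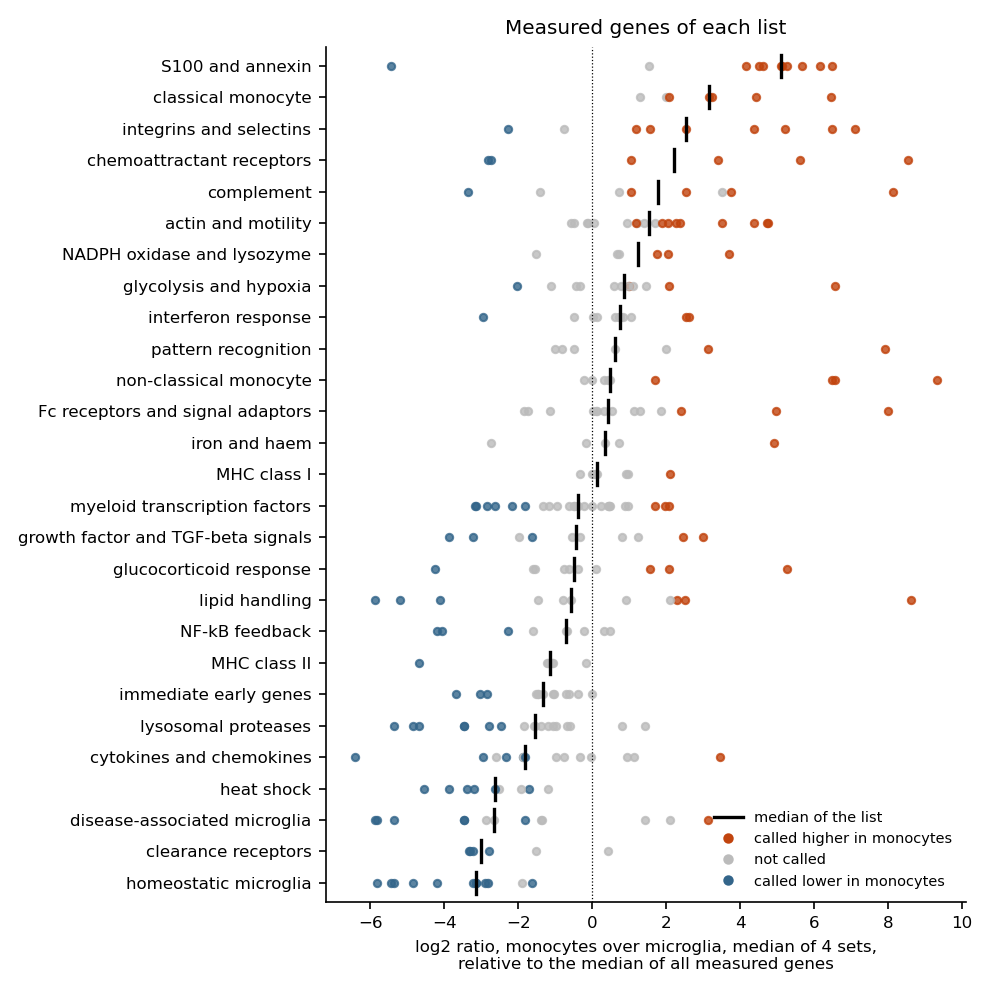
Measured genes of each list by log2 ratio of monocytes to microglia, the median of 4 barcode sets relative to the median measured gene. Each point is a gene, the bar is the list median, and colours give the calls; among the lists drawn, function lists and those of monocytes and microglia, S100 and annexin has a median of 5.10 and homeostatic microglia one of -3.14.

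Set against border macrophages, which are macrophages too but live at the brain's surfaces, 115 of 2301 measured genes were higher in monocytes (5.00%) and 98 lower (4.26%). Under the second rule 115 were higher and 95 lower (4.13%). Without carriers 203 were higher (9.21%) and 95 lower (4.31%) under both rules. Under TMM 67 were higher (3.20%) and 147 lower (7.02%), 140 of them under the second rule (6.69%), and without set 2 298 were higher. As single lists, 10 of 18 actin genes and 7 of 11 S100 and annexin genes were higher, and the median log2 ratios were 1.65 and 3.29. Plac8, a small cysteine-rich protein of blood myeloid cells, had 5873, 2417, 4802 and 4048 CPM in monocytes, against 182, 49.5, 0 and 10.8 CPM in border macrophages (log2 ratio 5.77). It was also higher than in microglia (3.23), where it lost its call under TMM. S100a4 had 1 UMI in all border macrophages together, so its log2 ratio of 6.58 is a lower bound. That of Plac8 is one too in set 3, where border macrophages had no UMI of it.

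Several chemokines were lower than in border macrophages: of 15 measured cytokines and chemokines 6 were lower and none higher, also 6 under TMM and 6 of 13 without carriers. Of 10 complement genes 2 were lower and 1 higher, with a median log2 ratio of 0.10. Cfd, complement factor D, had 55.0, 11.5, 14.6 and 16.8 CPM in monocytes, against 2709, 2700.0, 2522 and 2520.2 CPM in border macrophages (-7.42). In some sets monocytes had fewer than 3 UMIs of Cfd, so its ratio is an upper bound there. Cxcl2, a neutrophil chemoattractant, had 316, 1165, 357 and 567 CPM in monocytes, against 14296, 20312, 12539 and 13058 CPM in border macrophages (-5.21). Immediate early genes were lower in 8 of 13. Nr4a1 was the exception, higher at 2324, 848, 1266 and 1010 CPM in monocytes, against 446, 223, 71.8 and 257 CPM in border macrophages (1.80). Against microglia Nr4a1 was not called (0.00), with 878, 952, 864 and 946 CPM in microglia.

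Within the monocytes, Spn or Eno3 and Vcan, Fn1 or Fcnb were found in partly different cells. Eno3, muscle enolase, is on the non-classical list with Spn, and Vcan, versican, and Fn1, fibronectin, are on the classical list. Fcnb, grouped here with Vcan and Fn1, is on the neutrophil list and not on the classical list. After thinning to 1000 UMIs, Spn or Eno3 had a UMI in 63 of 115 monocytes (54.8%, 45.2 to 64.1%), 40 of 10735 microglia (0.373%) and 6 of 3070 endothelial cells (0.195%), and unthinned in 75.4%, 1.97% and 1.74%. Vcan, Fn1 or Fcnb had one in 23 of 115 monocytes (20%), 138 of 10735 microglia (1.29%) and 1518 of 3070 endothelial cells (49.4%). Unthinned the shares were 35.6%, 5.03% and 81.6%. Fn1 alone had a UMI in 49.4% of endothelial cells thinned and 81.6% unthinned, so this group of genes is not particular to monocytes.

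With carriers set aside and at least 2 UMIs asked for, a limit chosen after seeing the data, 65 monocytes had Spn or Eno3 alone and 8 had Vcan, Fn1 or Fcnb alone. The first kind numbered 5, 5, 18 and 37 in sets 1 to 4 and the second 2, 1, 2 and 3. A further 8 had both, as many as had Vcan, Fn1 or Fcnb alone, and 19 had neither, and 35 cells had just 1 or 2 UMIs of either group of genes, so many placements rest on few UMIs. The median depth was 3975 UMIs in the Spn or Eno3 cells, against 8908 UMIs in the Vcan, Fn1 or Fcnb cells, so depth differed along with the pattern.

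**Figure D4:**
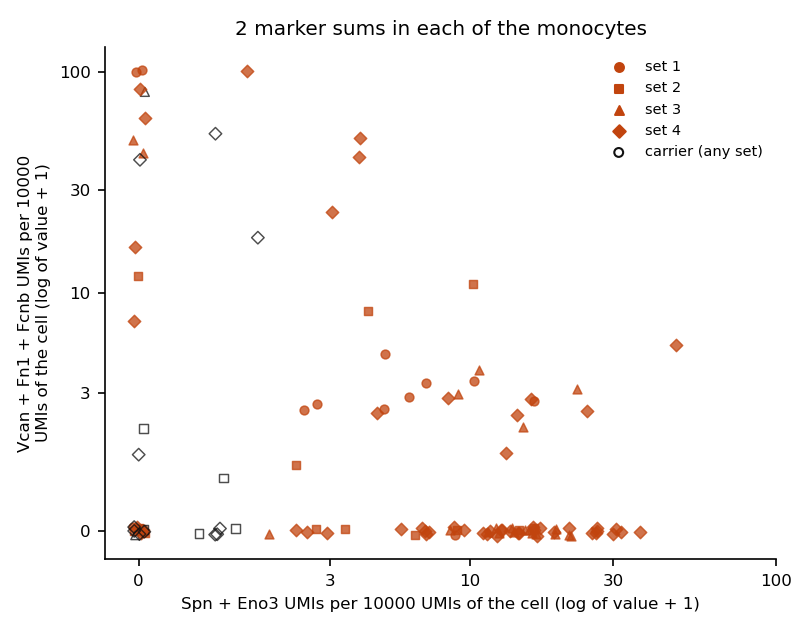
Each monocyte by its Spn and Eno3 UMIs (horizontal) and its Vcan, Fn1 and Fcnb UMIs (vertical), both per 10000 UMIs on a log axis of value + 1. Filled symbols are the 100 monocytes without carriers by barcode set and open symbols the 18 carriers; cells with 2 UMIs or more of both groups number 8 among the 100.

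The 65 Spn or Eno3 cells and the 8 Vcan, Fn1 or Fcnb cells differed in many other transcripts. In the 65 cells G0s2 stood at 6609 CPM (exact Poisson interval 6303 to 6927) with a UMI in 61 cells, against no UMI in the 8 cells, where 3 counts would be 39.8 CPM. Fcgr3a, the low-affinity IgG receptor CD16, had 572 CPM against no UMI, and the interferon-induced membrane protein Ifitm1 1152 CPM against no UMI. G0s2, Fcgr3a and Ifitm1 were thus found among monocytes of the Spn or Eno3 kind and not detectable in the 8 cells at this depth. Outside the monocytes, Ifitm1 had a UMI in 76 of 108 neutrophils (70.4%), unthinned. Cxcr4 had 1008 against 186 CPM, the B cell and myeloid factor Pou2f2 406 against 92.9 CPM, and Nr4a1 1853 against 889 CPM. In set 2, with a single cell of the second kind, these 3 ran the other way.

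In the other direction, S100a8, a calprotectin subunit, had no UMI in the 65 cells, where 3 counts would be 11.4 CPM, against 372 CPM in the 8. The chemokine receptor Ccr1 had no UMI against 199 CPM. Cd14, the co-receptor for lipopolysaccharide, had 72.0 against 770.0 CPM, S100a6 1054 against 5350 CPM and Plac8 3998 against 11058 CPM. Not every gene of the 2 monocyte lists followed the pattern. Clec4a1 and Fcgr1a, both on the classical list, were higher in the 65 cells, at 334 against 133 CPM and 258 against 53.1 CPM. On the non-classical list, Ace had no UMI in either kind. Cd300e had 1 UMI in the 65 cells and 2 UMIs in the 8 (3.79 against 26.6 CPM), too few to give a direction. The rule genes differed too, Napsa at 1910.0 against 690.3 CPM and Lyz2 at 6242 against 29564 CPM. Plac8 and Lyz2 ran the other way in set 2. Cell pools and not replicates lie behind these sums, so the intervals cover counting error only.

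Between barcode sets, many monocyte genes differed beyond counting error, and fewer did so without carriers. Leaving the carriers out also took away 41.1% of the UMIs, and the part of lower depth in the smaller counts was not tested. Of 997 genes with at least 50 UMIs, 578 (58.0%) differed at least 2-fold between the highest and lowest set with an interval that left out 1, and without carriers 143 of 562 (25.4%) did. Leaving out set 2 left 156 such genes. The genes furthest apart over all members were S100b, Fabp7, Mt3, Clu, Ifitm3, Tagln, Csrp2 and Pltp, each highest in set 2. S100b, a calcium-binding protein of astrocytes, had 13.8, 2989, 0 and 5.61 CPM. It stood at 4771 CPM in the 4 astrocyte carriers. The 8 astrocyte genes listed summed to 0, 3658, 29.1 and 16.8 CPM in all monocytes. These genes chose the astrocyte carriers, so the sums without carriers, 0, 19.1, 35.8 and 20 CPM, follow from that choice.

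Dendritic cell transcripts stood out in sets 3 and 4. In the 12 dendritic carriers, Cd74 had 19948 CPM, the class II gene RT1-Da 16657 CPM and Cst3 12507 CPM, against 2696, 1389 and 999.6 CPM in the 100 monocytes without carriers. Xcr1 and Clec9a, receptors of cross-presenting dendritic cells, are among the genes that chose these 12 cells, so their 112 and 123 CPM there describe the choice. G0s2 ran the other way, with 5.88 CPM in the 12 dendritic carriers, 2113 CPM in the 4 astrocyte carriers, and 5940.3 CPM in the 100. The dendritic carriers met the rule by Napsa (652 CPM) and Lyz2 (9075 CPM). Lst1, Cybb and Spn, which are outside the rule, were lower in them, as G0s2 was. Lst1 had 146.9 CPM in the 12 against 765.7 CPM in the 100, and Cybb 305.6 against 1171.5 CPM. Spn had 23.5 against 600.7 CPM. Whether these 12 cells are monocytes was not tested, and they stay in the shares and in all sums over all members.

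Without carriers, the genes furthest apart between sets were Cxcl2, Ifi27l2b, Slpi, Vcan, Fcnb, Hspa1b, Egr1 and Fn1. Cxcl2 had 316, 3386, 134 and 576 CPM in these monocytes, highest in set 2. Ifi27l2b, of the interferon-inducible Ifi27 family, had 660.1, 1110, 134 and 40.1 CPM in them, against 458, 338, 44.5 and 54.8 CPM in microglia, so sets 1 and 2 were the higher ones in both classes. Vcan had 935, 38.3, 98.6 and 130.2 CPM and Fn1 1953, 268, 538 and 762 CPM, both highest in set 1, where 14 cells were summed. None of these differences can be tied to a condition.

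**Figure D5:**
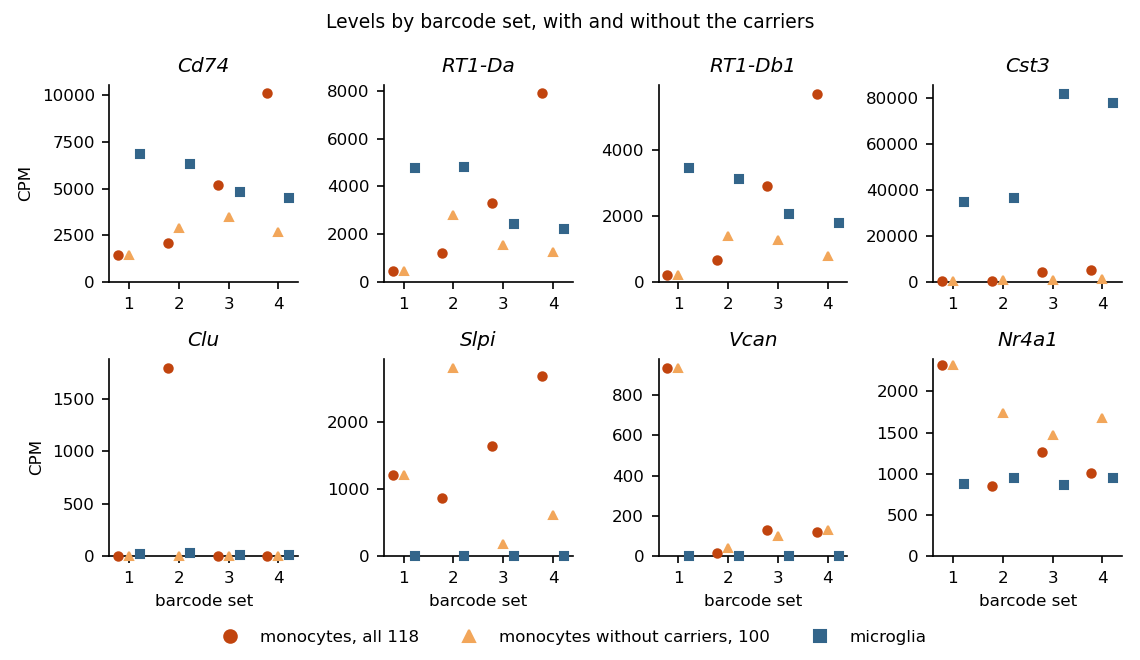
CPM of 8 genes in each barcode set for all 118 monocytes (circles), the 100 without carriers (triangles) and microglia (squares). Cd74 in all monocytes reaches 10136 CPM in set 4 and 2650 CPM there without carriers; Clu, an astrocyte gene, is one of those that chose the carriers, so its set 2 values describe that choice.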

How the data were processed

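The authors deposited 1 matrix of UMI counts for all libraries, as raw counts per gene and barcode. It was made with Cell Ranger 5.0.0 per the file headers, and the submitters' processing notes name Cell Ranger, STAR and Rnor_6.0. Barcodes stayed in if they had 500 UMIs or more, 300 genes or more and a mitochondrial share not above 20%. Classes were set by marker limits, with microglia taken as at least 5 C1q UMIs and at least 1 UMI of Tmem119 or Cx3cr1. Members, lists and rules were chosen with earlier results of these data known. Carriers, the stricter use of the floor and the pattern limits were added after seeing the data. Counts were summed per barcode set and class and scaled to CPM. Without replicates no test was made: shares have Clopper-Pearson and levels exact Poisson intervals at 95%, which cover counting error only. TMM factors came from edgeR 4.0.16, doublets from Scrublet in scanpy 1.11.5 (expected rate 6%), and the ratios were tested on simulated data. Named genes were the 15 highest and 10 lowest against microglia, members of the lists, and the 8 furthest apart between sets. Of 545 distinct list genes, some, including Ccr2, were not analysed here, and a few results are not reported here. Alternatives covered cell filters, rule limits, doublets, scaling, thinning, minimum level, fold and leaving out each set.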

Additional observations from a re-analysis of the deposited data

How the results depend on the processing

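No paired analysis of conditions was possible because each titled sample is 1 library and the columns carry no replicate number. Cell classes were compared within each barcode set. Of genes higher than in microglia (258), TMM scaling gave 121, thinning to 1000 UMIs 517 (244 with the floor of 3 counts used only against a call), a minimum of 20 CPM 521, of 100 CPM 139, no minimum 6127 (487 with that floor rule) and a 4-fold limit 134. Of genes lower than in microglia (139), TMM gave 274, thinning 46 and the 4-fold limit 46. Of genes higher than in border macrophages (115), TMM gave 67, the mean of per-cell CPM 187, thinning 44, the 4-fold limit 29, leaving out carriers 203 and leaving out members of 10000 UMIs or more 206. Of genes lower than in border macrophages (98), thinning gave 31 and the 4-fold limit 40. Leaving out 1 barcode set at a time gave 286 to 339 and 143 to 188 against microglia, and 125 to 298 and 109 to 144 against border macrophages. The number of lists above the median gene (12) was 6 with no minimum CPM.

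Of genes apart between sets (578), a C1q sum of at most 2 gave 381, thinning 50, leaving out carriers 143, leaving out members of 10000 UMIs or more 116, a minimum of 20 UMIs 1311, of 100 UMIs 257, and leaving out 1 set 156 to 549. The share of set 2 became 0.121% with a C1q sum of at most 2, and that of set 3 became 0.657% under the stricter cell filter. Cells with Spn or Eno3 (54.8%) were 75.4% unthinned and 66.3% at 2000 UMIs. Cells with Vcan, Fn1 or Fcnb (20%) were 35.6% unthinned, and cells with Flt3, Clec9a, Xcr1 or Clec10a (6.09%) were 13.6% unthinned. The log2 ratio to microglia turned positive for Mbp (0.18) with microglia free of other classes, and at 1000 UMIs per cell for Slc2a5 (0.23), Itga6 (0.34), Gpr183 (0.027), Il18 (0.17) and Spp1 (0.51). The cause was not tested.

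The stricter filter gave no value against border macrophages, since 1 set then held none. The other 121 values of the main results, over the alternatives run, stayed within their limits. With 14 to 62 monocytes per set, a gene near 50 CPM rests on few UMIs in the smallest set, and differences of such genes were not detectable there.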
